A study of Mus musculus with 24 samples.

Results

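The histone genes of CD4+ T cells were read on 24 Illumina MouseRef-8 arrays. The members were all probes whose gene symbol began with Hist1, Hist2, Hist3, Hist4, H1f, H2af or H3f, which gave 71 of 25697 probes and 64 of 18120 genes. Of these, 60 probes of 55 genes belonged to the replication-dependent histone clusters, with 47 probes in Hist1, 9 in Hist2, 3 in Hist3 and 1 in Hist4. The other 11 probes, of 9 genes, were histone variants. The arrays covered 4 states in 2 genotypes with 3 arrays in each group, labelled A, B and C. WT mice and mice deficient for BAF180, called KO in the figures, were 4 to 6 weeks old and are labelled Balb/c, while the study's methods describe a mixed background. In the KO mice the Pbrm1 gene, which encodes the BAF180 subunit of the PBAF chromatin remodelling complex, carried loxP sites and was deleted by Cre driven from the CD4 promoter, which acts late in thymocyte development.

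Resting Naïve cells were CD4+CD62L+ T cells from spleen and lymph nodes, purified to 95%. Stimulated Naïve cells had spent 24 h with antibodies to CD3 (1 µg/ml) and CD28 (2 µg/ml). Th2 cells came from Naïve cells started on the same antibodies, with IL-4 (10 ng/ml) and an antibody to IFN-γ (10 µg/ml) present and IL-2 (100 U/ml) given from the next day. They were taken at rest or 1.5 h after addition of PMA (50 ng/ml) plus ionomycin (500 ng/ml), a pharmacological mimic of receptor signalling. In such bulk samples, fewer cells expressing a gene and less RNA per cell cannot be told apart.

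Histones package DNA: an octamer of the core histones H2A, H2B, H3 and H4 forms the nucleosome, and the linker histone H1 binds where the DNA enters and leaves it. Most histone genes lie in clusters, lack introns and are transcribed in S phase, when new DNA needs new nucleosomes, and their mRNAs end in a stem-loop rather than a poly(A) tail. Variant genes lie outside the clusters, and most, but not all, are expressed through the cell cycle and give only ordinary polyadenylated mRNAs. Some cluster genes are also known to yield longer polyadenylated transcripts that run past the stem-loop. According to the labels the cRNA was primed with oligo-dT, so stem-loop mRNAs were measured by a method that favours poly(A), and this holds for every array.

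Detection differed widely between the members. Of the 71 probes, 14 were detected on 0 arrays (detection p above 0.02 throughout), 12 on 1 to 7 arrays, 17 on 8 to 23 arrays and 28 on all 24. Detection on 1 array or more was required for testing, which 57 member probes (54 genes) met among 14246 probes in all. They were 48 replication-dependent probes of 46 genes and 9 variant probes of 8 genes. The 14 left out were Hist1h1a, Hist1h1e, Hist1h2aa, Hist1h2ba, Hist1h2be, Hist3h2a, Hist3h2ba, Hist3h2bb, Hist4h4, H1foo, both other Hist1h3f probes and 1 further probe each of Hist1h2bc and H1fx. Between 33 and 42 members were detected on all 3 arrays of a group, the fewest in resting Naïve WT and the most in resting Th2 KO. Over all genes, 8047 to 10689 probes were detected per array.

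The labels of the genotypes were checked on Pbrm1. Its probe detected on all 24 arrays read 8.20, 8.72 and 8.69 (log2 level, arrays A, B and C) in resting Naïve WT against 7.88, 7.28 and 7.41 in KO. Its WT and KO arrays did not overlap in any of the 4 states. The KO minus WT difference was -1.01 and -1.63 at rest and after stimulation in Naïve cells, and -1.86 and -1.42 in Th2 cells, with adjusted p of 0.121, 0.00746, 0.00101 and 0.0141 (limma, Benjamini-Hochberg). The 2 dimmer Pbrm1 probes had differences from -0.76 to -0.40, none past an adjusted p of 0.05. In WT all 7 probes of the T cell markers were detected in every group. Resting Naïve arrays also carried markers of other cells: summed over 4 erythroid probes, the linear level ran from 366 to 12819 between the 3 WT arrays, against 82.0 to 349 in stimulated Naïve WT, and summed over 9 myeloid probes from 2869 to 6038 against 623 to 710.

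Many members resemble each other, and 18 of the 57 kept probes matched another kept member probe at 90% or more of at least 30 aligned bases, in 14 pairs. Matches were sought only between these probes, so the other probes were not shown to read 1 gene alone. The probes below are examples of that shared sequence from each core histone, shown because such probes can read more than 1 gene. Each is 50 bases long, 5′ to 3′, and capitals mark the longest run that all probes of its group share. The first group lies at the start of the H2A transcript, with 26 shared bases.
Hist1h2ad: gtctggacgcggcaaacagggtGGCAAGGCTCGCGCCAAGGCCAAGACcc
Hist1h2ah: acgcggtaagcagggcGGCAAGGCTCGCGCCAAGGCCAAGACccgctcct
Hist1h2ak: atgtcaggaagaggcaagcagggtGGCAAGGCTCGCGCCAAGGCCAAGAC

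The second group lies near the end of the H2A coding part and shares 18 bases between Hist1 and Hist2 genes. Its Hist2h2ac probe is in none of the pairs counted above.
Hist1h2af: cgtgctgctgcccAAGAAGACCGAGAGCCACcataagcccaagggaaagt
Hist1h2an: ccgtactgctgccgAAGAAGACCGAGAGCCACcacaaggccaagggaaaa
Hist1h2ao: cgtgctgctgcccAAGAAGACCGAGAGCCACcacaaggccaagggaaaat
Hist2h2ac: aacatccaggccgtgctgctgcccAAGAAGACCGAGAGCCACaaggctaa

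The H2A probes with the largest differences lie elsewhere in the transcript, so they have no capitals.
Hist1h2ag: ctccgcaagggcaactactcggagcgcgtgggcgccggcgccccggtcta
Hist2h2ab: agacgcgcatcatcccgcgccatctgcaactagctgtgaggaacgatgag

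The H2B probes of Hist1h2bf and Hist1h2bh share 27 bases, the H3 probes of Hist1h3d and Hist1h3e 31, and the H4 probes of Hist1h4k and Hist1h4m 47.
Hist1h2bf: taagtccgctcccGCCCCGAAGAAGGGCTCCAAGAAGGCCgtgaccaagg
Hist1h2bh: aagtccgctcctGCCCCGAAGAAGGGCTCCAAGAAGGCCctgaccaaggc
Hist1h3d: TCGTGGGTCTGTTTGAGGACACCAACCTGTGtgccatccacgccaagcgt
Hist1h3e: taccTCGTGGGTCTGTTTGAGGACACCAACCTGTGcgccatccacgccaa
Hist1h4k: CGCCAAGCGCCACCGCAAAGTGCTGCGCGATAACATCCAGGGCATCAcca
Hist1h4m: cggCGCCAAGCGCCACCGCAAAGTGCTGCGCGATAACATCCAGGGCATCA

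Values of near-identical probes are not independent measurements of separate genes. The probe position divided the replication-dependent members further. Of the 48 kept, 38 began within the first 450 bases of their transcript and are called near probes, and 10 began beyond it and are called far probes, which read only transcripts that reach that far. The nearest probes on either side were Hist1h3h at base 415 and Hist1h2bc at base 458. This division was drawn after the values had been seen, so it describes them and is not a test.

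Activation of Naïve cells for 24 h was the first comparison of states. In WT cells, 26 of the 57 members rose and 6 fell (adjusted p below 0.05 by limma over all kept probes), against 23.6% and 20% of all probes. The median difference over the 48 replication-dependent probes was 0.63 on the log2 scale and over all probes 0.01. Near and far probes went apart: 24 of 38 near probes rose and 0 fell, with a median difference of 0.97, whereas 0 of 10 far probes rose and 5 fell, with a median of -0.58. In KO cells 22 members rose and 5 fell, against 22.3% and 19.3% of all probes. Of the 26 members called higher in WT, 80.8% were also called in KO, and of the 22 in KO 95.5% were also called in WT, on arrays that the 2 genotypes do not share.

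H2A genes, whose product pairs with H2B on the outer faces of the nucleosome, rose most evenly. All 10 near H2A probes rose in WT, by 0.69 to 2.72 with a median of 2.11, and all 10 rose in KO, with a median of 1.96. Hist1h2ag read 5.99, 6.99 and 6.71 in resting Naïve WT and 9.36, 8.77 and 9.73 in stimulated Naïve WT. It rose by 2.72 ± 0.31 (SE, n = 3 arrays per group), or 6.60-fold, with an adjusted p of 5.3e-07. No stimulated array came near a resting one. Hist2h2ab, in the second cluster, read 4.77, 4.61 and 4.78 at rest, where it was detected on 1 of 3 arrays, and 6.92, 7.09 and 8.03 after stimulation. Its difference of 2.63 ± 0.31 had an adjusted p of 8.7e-07. Hist1h2ad, Hist1h2ah and Hist1h2ak followed with 2.41, 2.29 and 2.28, and their probes are the first group of sequences above. Of the 3 far H2A probes Hist2h2aa1 fell, and Hist1h2ac and Hist1h2ae differed by -0.33 and 0.28 and passed no test. Neither of these last was detected on a resting Naïve WT array. After stimulation they were detected on 0 and 1 of 3 WT arrays, so their values lie near the background.

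H2B, H3 and H4 genes responded in part. Of 8 near H2B probes 6 rose in WT, with a median over the 8 of 0.97, led by Hist1h2bk at 1.46 ± 0.32 (adjusted p 0.00076). Its WT arrays read 5.93, 6.16 and 6.04 at rest and 7.66, 6.74 and 8.13 after stimulation, without overlap. Hist1h2bb and the near probe of Hist2h2bb, at 0.08 and -0.06, did not pass. Neither was detected on a resting Naïve WT array, and after stimulation they were detected on 0 and 1 of 3 WT arrays. In KO only 2 of the 8 were called, although the difference between the genotypes was itself not called for any of them.

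Of 9 near H3 probes 5 rose in WT and 6 in KO. H3 carries the tail on which many regulatory marks are set. Hist1h3a read 6.07, 7.13 and 6.90 at rest and 8.46, 7.56 and 8.89 after stimulation in WT, a rise of 1.6 ± 0.32 (adjusted p 0.00037). Hist1h3d and Hist1h3e rose by 1.51 and 1.52. Hist1h3c and Hist1h3h were not detected on any resting Naïve WT array, so only a bound can be given for them: against the dimmest level detected on those arrays they were at least 1.95-fold and at least 1.82-fold higher, and the same kind of bound is used below. The H3 genes of the second cluster did not follow, with -0.07 for Hist2h3b and 0.19 and -0.30 for the 2 probes of Hist2h3c1, of which the first was called in KO at 0.51.

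H4, among the most conserved of proteins, had the smallest median of the core histones. Only Hist1h4i (1.05 ± 0.23, adjusted p 0.00081), Hist1h4f (0.87) and Hist1h4b (0.73, at least 1.04-fold) rose among 10 probes, with a median over all 10 of 0.29. Hist1h4i read 5.60, 6.28 and 6.25 at rest and 7.01, 6.70 and 7.57 after stimulation in WT. The other 7 ranged from -0.28 to 0.58 and overlapped between the states.

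**Figure D1:**
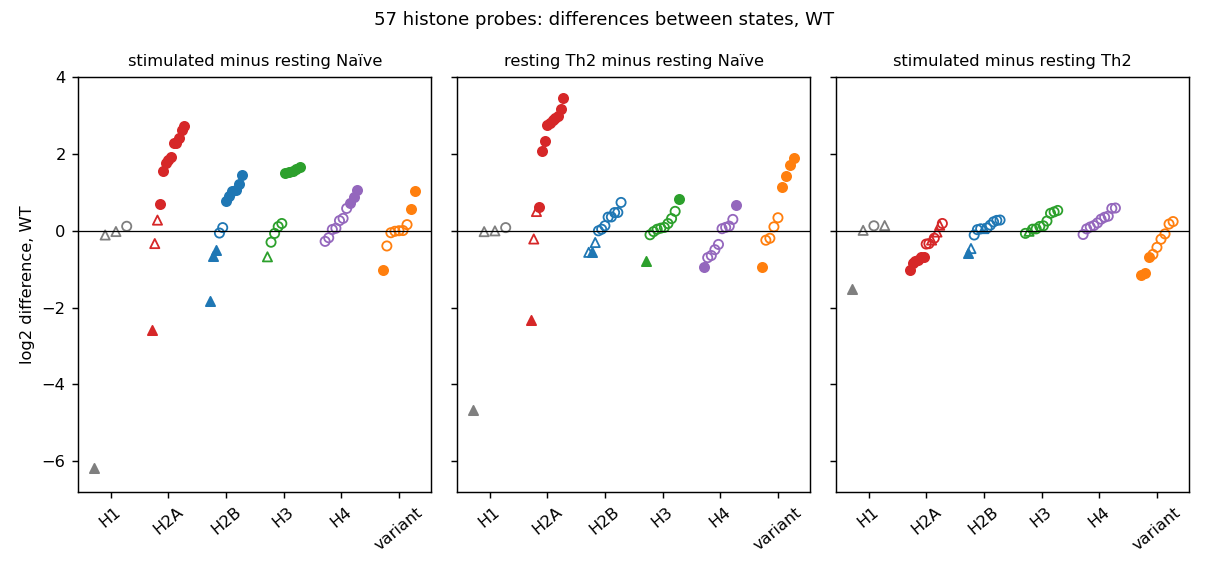
Log2 difference between states in WT (vertical axis) for each of the 57 kept probes, by histone type (horizontal axis), in 3 comparisons. Filled symbols passed an adjusted p below 0.05, open symbols did not, circles are near probes and variants, and triangles are far probes of replication-dependent genes. All near H2A probes rose in stimulated Naïve and in resting Th2 cells, while Hist1h1c is the lowest point in each panel.

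The linker histone gene Hist1h1c had the largest difference of any member. In resting Naïve cells it read 11.90, 11.87 and 11.60 in WT and 11.34, 11.86 and 11.24 in KO. In stimulated Naïve cells it read 6.17, 5.15 and 5.49 in WT and 6.35, 5.64 and 5.53 in KO. The groups stood far apart in both genotypes, with a fall of 6.19 ± 0.36 log2 units in WT (72.9-fold, adjusted p 3.9e-11) and of 5.64 ± 0.36 in KO. The probe begins at base 1252 of the transcript model, far beyond the coding part of a linker histone. The 3 other kept H1 probes, of Hist1h1b, Hist1h1d and Hist1h1t, differed by 0.12, -0.02 and -0.11, and Hist1h1d and Hist1h1t were not detected on any WT array of either state. Over the same 3 resting WT arrays the summed erythroid level ran from 366 to 12819 and the summed myeloid level from 2869 to 6038. Myeloid markers fell with stimulation at 8 of 9 probes, erythroid at 2 of 4, B cell at 2 of 7 and CD8 T and NK cell markers at 2 of 5, and their part in the Hist1h1c value was not tested.

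Other far probes fell as well. Hist2h2aa1, an H2A gene of the second cluster read at base 524, stood at 7.37, 7.12 and 6.06 in resting Naïve WT and was detected on none of the stimulated Naïve WT arrays, at least 4.60-fold lower. Hist1h2bc, an H2B gene, stood at 6.33, 6.53 and 5.52 at rest and was likewise undetected after stimulation, at least 2.78-fold lower. Hist2h2bb has a probe on each side of the division. The far one, at base 2542, fell by 0.66 ± 0.16 (limma adjusted p 0.0023). The near one differed by -0.06, but it was detected on 0 of 3 resting and 1 of 3 stimulated WT arrays. Its value lies near the background and cannot be set against the far one. Hist1h2bg, detected on 1 of 3 resting and 0 of 3 stimulated arrays, was at least 1.06-fold lower, and Hist1h3f, at -0.68 with an adjusted p of 0.051, did not pass.

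**Figure D2:**
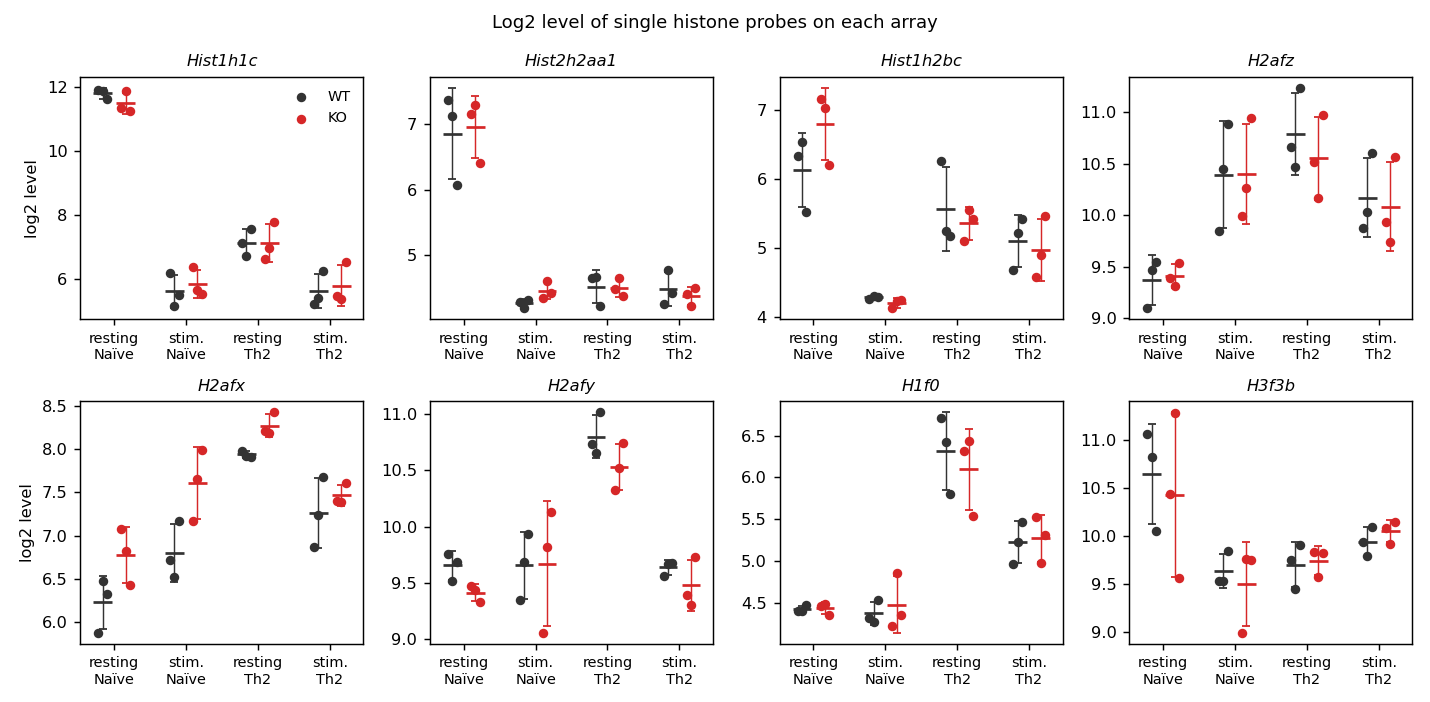
Log2 level (vertical axis) of 8 single probes on each of the 24 arrays, by state (horizontal axis) and genotype, with the mean as a bar and the SD of 3 arrays as a whisker. Hist1h1c fell from 11.24 or more on resting Naïve arrays to 6.35 or less on stimulated Naïve arrays, Hist2h2aa1 and Hist1h2bc fell with stimulation, and the variants H2afz, H2afx, H2afy and H1f0 were higher in resting Th2 cells than in resting Naïve cells.

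Resting Th2 cells were set against resting Naïve cells next. In WT 16 members were higher and 6 lower, against 18.4% and 16% of all probes, and in KO 14 were higher and 6 lower, against 18.8% and 15.9%. All 14 members called higher in KO were called in WT, which is 87.5% of the WT calls, and 4 of the 6 called lower were shared. The median over the 48 replication-dependent probes was 0.10 in WT, and all probes had 0.03. The calls were unequal between core histones. All 10 near H2A probes were higher, by 0.63 to 3.46 with a median of 2.85, while 0 of 8 near H2B probes, 1 of 9 near H3 probes and 1 of 10 H4 probes were, with medians of 0.36, 0.09 and -0.15.

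Hist2h2ab rose by 3.46 ± 0.31 log2 units (adjusted p 3.7e-08), with 7.76, 7.93 and 8.84 in resting Th2 WT against at most 4.78 in resting Naïve WT. Since it was detected on 1 of 3 resting Naïve WT arrays, the size of its differences from that state is uncertain. Hist1h2ag, detected on all these arrays, rose by 3.17, Hist1h2af by 2.99, Hist1h2ad by 2.94 and Hist1h2ah by 2.89, each without overlap between the states. Hist1h2ao, whose level on its own probe was 11.63 to 12.07 at rest in Naïve WT, reached 13.70 to 14.20. The near H2A median of 2.85 stands beside 2.11 for stimulated Naïve cells, and the difference between these states was not tested. For H2B the same arrays gave little: Hist1h2bk read 6.24, 5.97 and 7.0 in resting Th2 WT, and its difference of 0.35 ± 0.32 did not pass. Hist1h3a, which had risen with stimulation, differed by 0.19. Hist1h3c was higher by at least 1.09-fold and Hist1h4i by 0.68.

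The lower members again included Hist1h1c, at 7.12, 6.70 and 7.55 in resting Th2 WT, a difference of -4.67 ± 0.36 (25.4-fold, adjusted p 2.9e-09). Hist2h2aa1, detected on 2 of 3 resting Th2 WT arrays, fell by 2.34, and Hist1h4h fell by 0.94. A further pair of calls rested on few detected arrays: Hist1h3f, with a difference of -0.80, was detected on 1 of 3 resting Th2 and 2 of 3 resting Naïve arrays, and Hist1h2bg, at least 1.1-fold lower, on 0 and 1 of 3. The sixth was the variant H3f3b. Myeloid markers were also lower at 8 of 9 probes (summed level 857 to 1277 in resting Th2 WT) and erythroid at 2 of 4 (83.0 to 183). B cell markers were lower at 3 of 7 (median -1.43) and CD8 T and NK cell markers at 3 of 5 (median -1.17). Their part in these values was not tested. In KO, Hist1h2bc and Hist1h4c were called in place of H3f3b and Hist1h2bg.

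PMA and ionomycin for 1.5 h gave the fewest calls. In WT 0 members rose and 11 fell, against 13% and 14.3% of all probes, and in KO 0 rose and 10 fell, against 12% and 13.8%. By limma at an unadjusted p below 0.05, 1 member was higher in WT (Hist1h4m, 0.59), against 2396 of all 14246 probes. In KO 1 was higher (Hist2h3b, 0.66), where 12% of all probes rose even at the adjusted cut-off. All 10 called in KO were called in WT. In both genotypes 6 of 10 near H2A probes fell, with a median of -0.69 in WT and -0.75 in KO: Hist1h2ag by 1.03, Hist1h2ak by 0.83, Hist1h2ah by 0.78, Hist2h2ac by 0.76, and Hist1h2ad and Hist1h2ao by 0.69 each in WT. Hist1h2ag read 9.69, 9.44 and 10.07 in resting and 8.24, 8.92 and 8.94 in stimulated Th2 WT, without overlap, and its adjusted p was 0.016. No near H2B, H3 or H4 probe passed, and their medians were 0.11, 0.13 and 0.25. Hist1h1c fell once more, by 1.51 ± 0.36 (adjusted p 0.0028), to 5.21, 5.39 and 6.23, and the far probe of Hist2h2bb fell by 0.58. With only the compared arrays fitted, 3 rose and 12 fell in WT, and with the array letter as a replicate block 1 rose and 12 fell. These WT and KO counts rested on few arrays. Without stimulated Th2 WT array A the count in WT was 4 and without resting Th2 WT array C it was 5, and in KO it was 3 without stimulated array B and 6 without resting array C.

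**Figure D3:**
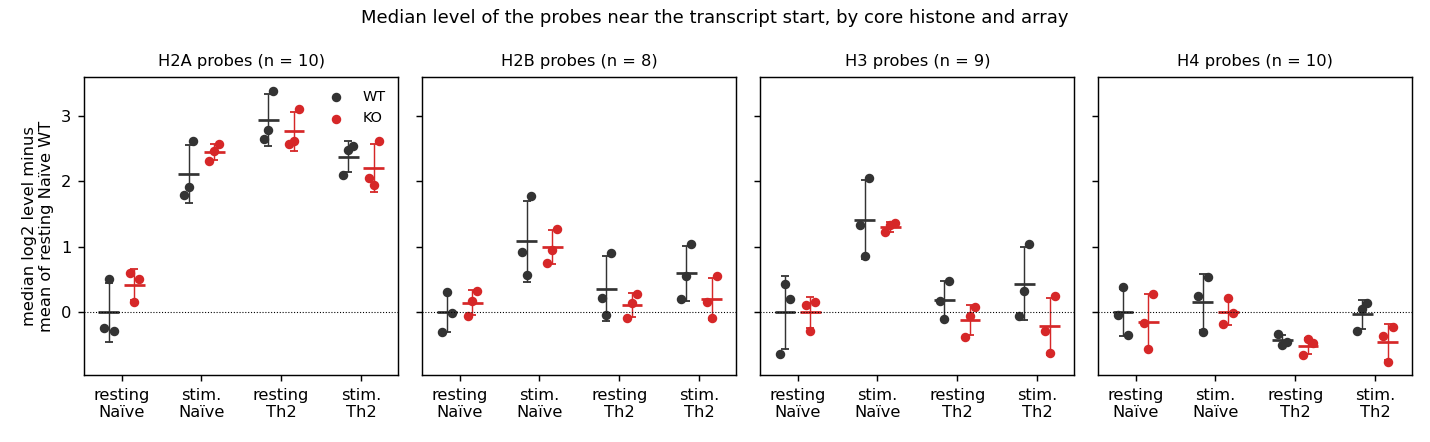
Median log2 level of the near probes of H2A, H2B, H3 and H4 on each array, minus the mean of the 3 resting Naïve WT arrays (vertical axis), by state and genotype, with the group mean as a bar and the SD of 3 arrays as a whisker. H2A stayed high through all 3 later states, H2B and H3 were highest in stimulated Naïve cells, and H4 changed little.

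Several H2A and H2B genes stand head to head, so that 1 short stretch between their starts serves both. By the RefSeq gene starts on GRCm38.p6, 6 pairs of member genes began within 500 bases of each other on opposite strands, and 5 of them had both probes kept. Hist1h2ag and Hist1h2bj start 249 bases apart. Hist1h2ag differed by 2.72 and 3.17 in stimulated Naïve and resting Th2 WT cells, and Hist1h2bj by 1.06 and 0.48, of which only 1.06 passed. Hist1h2ad and Hist1h2bf, 174 bases apart, gave 2.41 and 2.94 against 0.77 and 0.04. The H2A partner had the larger value in all 5 pairs and both comparisons, but the pairs are not 5 separate cases. The probes of Hist1h2ad, Hist1h2ah and Hist1h2ak match each other and can read more than 1 gene. So can those of the H2B partners Hist1h2bf and Hist1h2bn, which match each other at 35 of 36 aligned bases. The other near pairs, Hist1h2ah with Hist1h2bk at 178 bases and Hist1h2ak with Hist1h2bn at 164 bases, gave 2.29 and 2.89 against 1.46 and 0.35, and 2.28 and 2.80 against 1.23 and 0.74. Hist1h2ae and Hist1h2bg, 180 bases apart, have far probes and gave 0.28 and 0.50 against -0.50 and -0.55. In Naïve WT cells at rest and after stimulation, Hist1h2ae was detected on 0 and 1 of 3 arrays. Hist1h2bg was detected on 1 and 0 of 3, so these values lie near the background. The difference between partners was not tested, and it sets 2 probes of unlike sequence against each other.

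**Figure D4:**
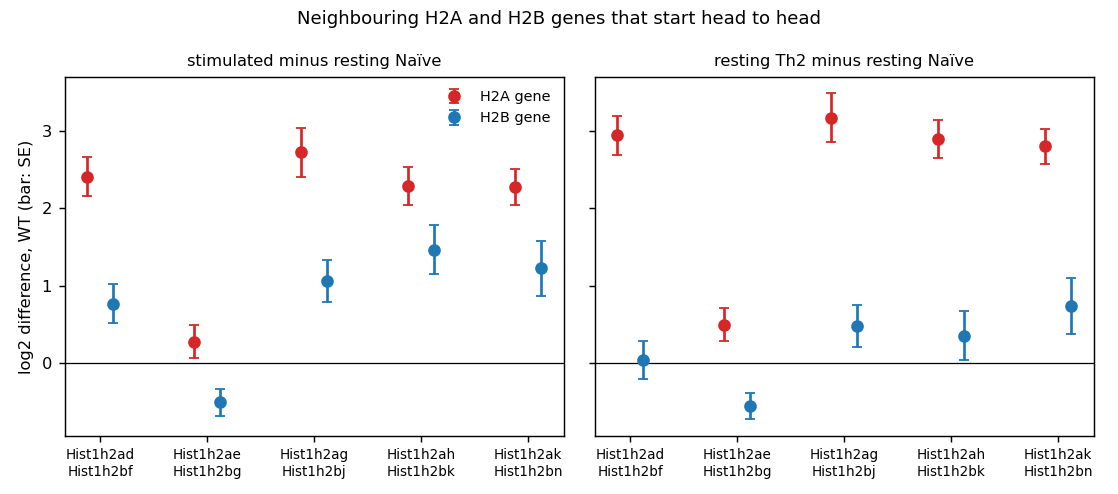
Log2 difference in WT (vertical axis, bars are SE) of the H2A and the H2B gene of 5 head-to-head pairs (horizontal axis), for stimulated minus resting Naïve cells and resting Th2 minus resting Naïve cells. The H2A gene lies above its H2B partner in every pair, and in resting Th2 cells the H2B genes lie between -0.55 and 0.74.

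Promoters were read from RefSeq, for 58 of the 64 member genes, as 250 bases before and 50 after the start on GRCm38.p6. They were searched on both strands for the letters of the TATA box (TATAAA), for CCAAT, for the octamer known from H2B promoters (ATTTGCAT) and for a box known from H1 promoters (AAACACA), and none of these holds another. Of 50 replication-dependent promoters 30 held TATAAA, 42 the letters CCAAT, 13 the octamer and 9 the H1 box, and over all 27025 promoters of the same length the shares were 14.2%, 37.9%, 1.75% and 7.14%. The types differed in their letters. All 15 H2A, 12 H2B and 7 H3 promoters held CCAAT, against 2 of 10 H4 promoters. The octamer was in 7 of 15 H2A and 6 of 12 H2B promoters and in 0 of the H3 and H4 promoters, and AAACACA in 5 of 6 H1 promoters. Head-to-head partners share part of these stretches, so 1 match can count for both genes. In Hist1h2aa with Hist1h2ba, Hist1h2ae with Hist1h2bg and Hist1h2ah with Hist1h2bk both partners held the octamer. A match is a description of the letters and not of a bound site.

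3 promoters are printed because their genes carry the contrasts above, with every match in capitals. Hist1h2ag, whose stretch is shared with Hist1h2bj on the opposite strand, lies at chr13:22042900-22043199 on the minus strand and holds CCAAT 5 times, in either orientation. Hist1h2bk, at chr13:22035571-22035870 on the plus strand, holds the octamer and CCAAT. Its TATAAA match reads on the opposite strand and lies far upstream of the start, so it stands here as letters only. Hist1h1c, at chr13:23738557-23738856 on the plus strand, holds the H1 box and CCAAT.
Hist1h2ag: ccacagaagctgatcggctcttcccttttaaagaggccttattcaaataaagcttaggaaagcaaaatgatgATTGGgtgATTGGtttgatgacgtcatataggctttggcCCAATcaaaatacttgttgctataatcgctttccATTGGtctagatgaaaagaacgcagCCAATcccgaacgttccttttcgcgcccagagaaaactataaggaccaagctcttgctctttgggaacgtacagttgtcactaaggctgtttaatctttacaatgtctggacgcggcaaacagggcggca
Hist1h2bk: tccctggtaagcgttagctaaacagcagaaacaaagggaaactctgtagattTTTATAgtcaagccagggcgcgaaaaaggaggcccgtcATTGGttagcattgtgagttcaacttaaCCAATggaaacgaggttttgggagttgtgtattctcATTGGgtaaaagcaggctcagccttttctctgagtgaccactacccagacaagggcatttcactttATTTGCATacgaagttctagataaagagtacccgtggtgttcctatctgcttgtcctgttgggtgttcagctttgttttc
Hist1h1c: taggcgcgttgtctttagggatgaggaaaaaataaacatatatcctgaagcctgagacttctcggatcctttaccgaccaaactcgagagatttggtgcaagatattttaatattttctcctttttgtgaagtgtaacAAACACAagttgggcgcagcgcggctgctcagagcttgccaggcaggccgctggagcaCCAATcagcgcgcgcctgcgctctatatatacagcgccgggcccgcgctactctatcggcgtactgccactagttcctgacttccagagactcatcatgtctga

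The histone variants were read next. Of their 9 kept probes 2 rose and 1 fell in stimulated Naïve WT cells, and 4 were higher and 1 lower in resting Th2 WT cells. After PMA and ionomycin 0 rose and 3 fell. The shares of all probes, in the same order, were 23.6% and 20%, 18.4% and 16%, and 13% and 14.3%. H2afz encodes H2A.Z, which is placed at promoters by a remodelling complex. It read 9.09, 9.47 and 9.55 in resting Naïve, 9.85, 10.45 and 10.88 in stimulated Naïve and 10.66, 10.47 and 11.24 in resting Th2 WT cells. Both later states lay above the resting Naïve arrays, with differences of 1.03 ± 0.30 after stimulation (adjusted p 0.0076) and 1.42 ± 0.30 at rest as Th2 cells (0.00084). After PMA and ionomycin its difference of -0.62 did not pass.

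H2afx encodes H2A.X, the variant that is phosphorylated around DNA breaks. It read 5.88, 6.47 and 6.33 in resting Naïve, 6.71, 6.52 and 7.17 in stimulated Naïve, 7.98, 7.92 and 7.91 in resting Th2 and 6.87, 7.23 and 7.68 in stimulated Th2 WT cells. It rose by 0.57 and 1.71 against resting Naïve and fell by 0.68 after PMA and ionomycin, and all 3 passed. The calls of 0.57 and 0.68 were each lost under 7 of 13 alternatives, while that of 1.71 was lost under 0. H2afy encodes macroH2A, known from silent chromatin. It differed by 0.00 with Naïve stimulation, was 1.14 ± 0.21 higher in the Th2 cells at rest (adjusted p 0.00022), and fell by 1.16 ± 0.21 after PMA and ionomycin (adjusted p 0.0002). The linker variant H1f0, known from cells that have left the cycle, was undetected in all 6 WT Naïve arrays, read 6.71, 6.42 and 5.81 in resting Th2 WT and was thus at least 2.74-fold higher, then fell by 1.09 to 4.97, 5.23 and 5.47. In WT the resting Th2 arrays stood above all others for H2afy and for H1f0.

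The genes of the replacement H3 that is deposited outside S phase, H3f3a and H3f3b, did not rise. H3f3b read 11.07, 10.83 and 10.06 in resting Naïve WT and 9.54, 9.53 and 9.85 after stimulation, a fall of 1.01 ± 0.31 (adjusted p 0.011), and was lower by 0.95 log2 units (fell by 0.95) in resting Th2 cells. Its resting Naïve WT arrays spread over 1 log2 unit, more than those of the other WT groups. H3f3a has 2 probes, one bright at -0.40 and -0.20 and one dim at 0.01 and 0.34 in the same comparisons, none of which passed. H2afj and H1fx passed no test either, and H2afj had the largest SE of the members, 0.49.

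Genes that act on histones were read as lists beside the members. Of 19 probes of histone chaperones and assembly factors 14 rose and 0 fell in stimulated Naïve WT cells (median 0.97). In resting Th2 cells 12 rose and 0 fell, and 2 rose and 5 fell after PMA and ionomycin. The shares of all probes, in the same order, were 23.6% and 20%, 18.4% and 16%, and 13% and 14.3%. Chaf1a and Chaf1b, subunits of the factor that loads H3 and H4 behind the replication fork, rose by 2.14 and 1.72, were higher by 1.83 and 1.11 in resting Th2 cells and fell by 0.96 and 1.03 after PMA and ionomycin. Asf1b, which hands H3 and H4 to them, rose by 1.73, was 2.73 higher and fell by 1.86, and the 3 probes of Nasp, a carrier of soluble H3 and H4, rose by 0.81 to 1.97 with Naïve stimulation. The brighter Nasp probes were also called higher in resting Th2 cells, calls lost under 6 of 12 and 5 of 13 alternatives. Hira, which deposits the replacement H3, was at least 1.22-fold higher at 1 of 2 probes with Naïve stimulation. That Hira probe was also called higher in resting Th2 cells (5.17, 5.50 and 4.81 in WT). Unlike Chaf1a, Chaf1b and Asf1b it was called higher again after PMA and ionomycin (5.93, 5.94 and 5.54), a call lost under 7 of 13 alternatives. Daxx passed no test. Of 10 probes of histone gene transcription and mRNA processing 3 rose with Naïve stimulation, against 23.6% of all probes. Slbp, the stem-loop binding protein, and Casp8ap2 were detected on 0 arrays.

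The cell cycle lists moved in the same direction as the H2A probes. Of 22 S phase probes 20 rose with Naïve stimulation (median 1.98), 19 were higher in resting Th2 cells (1.65) and 8 fell after PMA and ionomycin. Among all probes the shares in these directions were 23.6%, 18.4% and 14.3%. Pcna, the sliding clamp of the replication fork, was at least 2.16-fold and at least 2.07-fold higher in the first pair of comparisons and differed by 0.03 in the third. Of 10 probes of G2 and mitosis 9 rose, 9 were higher and 8 fell in the same order, with medians of 2.02, 2.82 and -1.38. The part of cycling cells in the histone values was not tested.

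Loss of BAF180 was compared with WT in each state. The study's methods call a probe by 4 criteria (Z-ratio beyond 1.5 either way, FDR below 0.3, p below 0.05 and a mean signal above 0) on Z-score data. Here the same cut-offs were applied to the limma differences of the quantile-normalized values. The Z-ratio was the log2 difference over its SD across all probes, so that 1.5 stood for 0.36 and 0.28 in Naïve cells at rest and after stimulation and 0.31 and 0.28 in Th2 cells. By these criteria 0 of 57 members were called in any state, against shares of all probes of 0.681% in Naïve cells at rest and 0.112% after stimulation, and of 0.0842% in Th2 cells at rest and 0.0913% after stimulation. By limma at an adjusted p below 0.05 the counts were 0 in every state as well. At an unadjusted p below 0.05 they were 8, 1, 0 and 2, against 973, 321, 489 and 397 of all 14246 probes. Single arrays moved these counts: the 8 became 1 without KO array A and 10 without WT array B, and the 2 became 0 without KO array A or B and 8 without KO array C or WT array A. Among Naïve cells at rest, 3 members were higher and 1 lower in KO without overlap of the arrays, against 4.13% and 3.85% of all probes. In stimulated Naïve cells 1 was higher and 1 lower, against 3.25% and 3.21%, in resting Th2 cells 2 and 2, against 5.56% and 4.5%, and for Th2 cells after PMA and ionomycin 0 and 2, against 3.66% and 3.65%. The median KO minus WT difference of the replication-dependent probes was 0.03, 0.02, -0.08 and -0.20 in the 4 states. The 95% confidence interval lay within 1 log2 unit of 0 for 47, 55, 54 and 45 of the 57 members.

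**Figure D5:**
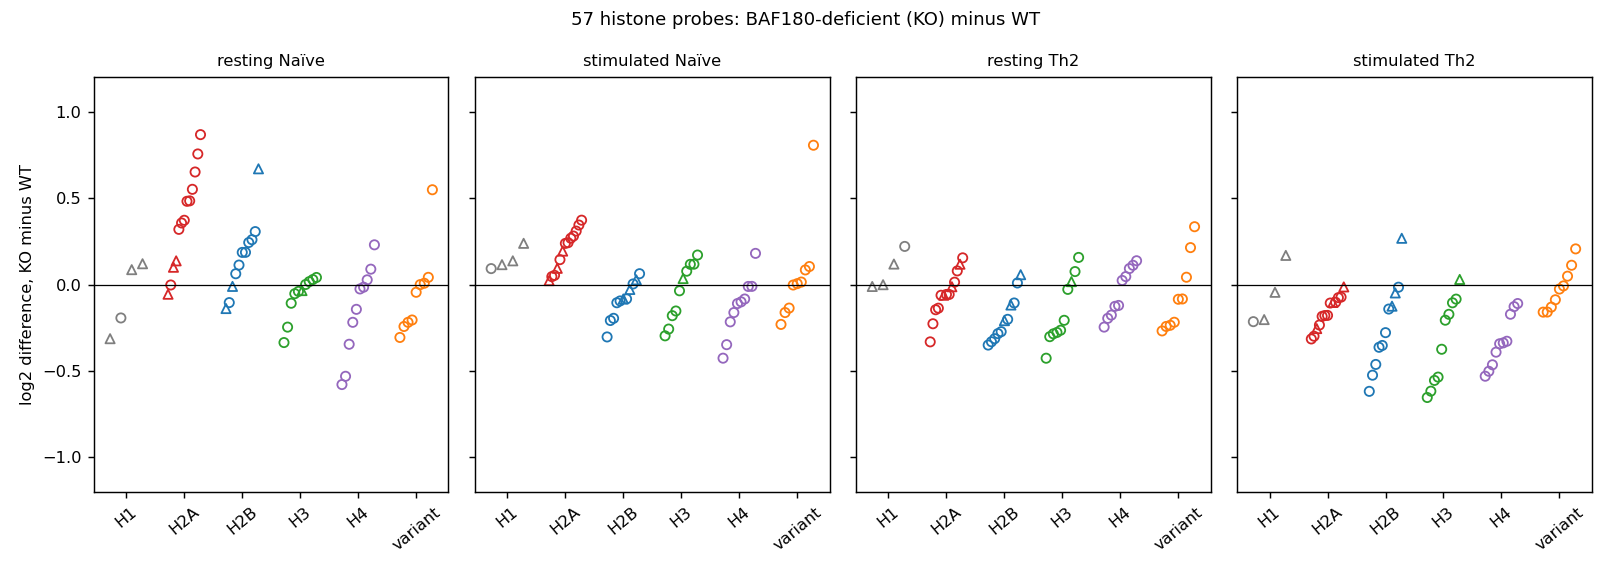
Log2 difference, KO minus WT (vertical axis), for each of the 57 kept probes by histone type (horizontal axis) in the 4 states, with symbols as in the plot of differences between states and filling for the 4 criteria. No symbol is filled, the near H2A probes lie mostly above 0 in resting Naïve cells, and all near replication-dependent probes lie below 0 in stimulated Th2 cells.

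In Naïve cells at rest the near H2A probes had a median KO minus WT difference of 0.48, and 9 of 10 were above 0. By limma 5 of the 10 had an unadjusted p below 0.05, against 973 of all 14246 probes, and none of the 5 passed the adjustment. The median log2 level of the near H2A probes was 8.69, 9.44 and 8.64 on the WT arrays A, B and C and 9.52, 9.07 and 9.42 on the KO arrays. The genotypes overlapped, and array B ran the other way from A and C. Hist2h2ab read 4.77, 4.61 and 4.78 in WT and 5.47, 5.44 and 5.85 in KO, without overlap, a difference of 0.87 (95% confidence interval 0.22 to 1.52, adjusted p 0.56). With the array letter as a replicate block it met the 4 criteria (adjusted p 0.078), against 0.856% of all probes in that fit. Hist1h2ad, at 9.17, 9.79 and 9.12 in WT and 10.12, 9.80 and 10.12 in KO, differed by 0.65 (0.13 to 1.18), and Hist1h2bh by 0.24 (-0.27 to 0.75), both without overlap. Over the same arrays 0 of 22 S phase probes passed an adjusted p of 0.05 (limma; 0 also at an unadjusted p below 0.05), with a median of 0.04. Of 10 G2 and mitosis probes 8 were above 0 (median 0.09, up to 0.55) and of 7 B cell probes 6 (median 0.16), with 0 called and 1 B cell probe without overlap, and the summed erythroid level was 3793 to 6045 in KO against 366 to 12819 in WT. Their part in the H2A values was not tested. In the other states the near H2A medians were 0.25, -0.06 and -0.18. The genotype difference was smaller in Th2 than in Naïve cells at rest for all 10, with a median of -0.60, but was called for 0 of 57 members, and by limma 0 had an unadjusted p below 0.05. That last count was 5 with Z-score normalization, 6 with the replicate block and 9 without resting Naïve WT array B, and none of these was called. With the block 473 of all 14246 probes had an unadjusted p below 0.05.

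In stimulated Th2 cells all 38 near replication-dependent probes were lower in KO, by 0.02 to 0.65 with a median of -0.29, and the variants had a median of -0.03. The arrays of the genotypes still overlapped: averaged over these probes and set against the mean of the state, the WT arrays A, B and C stood at -0.11, 0.16 and 0.39 and the KO arrays at -0.19, -0.39 and 0.13. Within each letter KO lay below WT. With the letter as a replicate block 6 members in place of 2 had an unadjusted p below 0.05 by limma, with 0 called. Among all 14246 probes the block gave 466 in place of 397. Hist1h2bj and Hist1h3e, both at -0.62, had an unadjusted p below 0.05. Hist1h4c read 5.55, 5.59 and 5.49 in WT and 5.24, 4.67 and 5.20 in KO, without overlap, and its difference of -0.50 did not pass (95% confidence interval -1.04 to 0.04). Probes on 1 array share its RNA and scan, so the 38 signs are not separate observations.

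H2afx was the member with the largest KO minus WT difference among the variants. Its KO minus WT difference was 0.55 and 0.81 in Naïve cells at rest and after stimulation and 0.33 and 0.21 in Th2 cells, with 95% confidence intervals of 0.08 to 1.02, 0.33 to 1.28, -0.14 to 0.81 and -0.27 to 0.68. In resting Th2 cells WT read 7.98, 7.92 and 7.91 and KO 8.21, 8.19 and 8.42, without overlap, and in the other states the arrays overlapped. None of these passed the adjusted test. The other members without overlap in resting Th2 cells were the bright H3f3a probe at -0.24, Hist1h1b at 0.22 and Hist1h4c at -0.12, and in resting Naïve cells H2afy at -0.24. In stimulated Naïve cells Hist2h2aa1 and Hist1h2bc did not overlap but were undetected on 5 of 6 and 6 of 6 arrays. Hist1h1c differed by -0.31, 0.24, -0.01 and 0.17 in the 4 states, with intervals that all held 0.

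The changes between states were compared between the genotypes directly. For stimulated minus resting Naïve cells, resting Th2 minus resting Naïve cells and stimulated minus resting Th2 cells, 0 of 57 members had a genotype difference past an adjusted p of 0.05 by limma, against 0.00702%, 0.00702% and 0% of all probes, and 0 had an unadjusted p below 0.05. With the replicate block 2, 6 and 1 members had an unadjusted p below 0.05, against 402, 473 and 307 of all 14246 probes. Among the genes that act on histones, Hjurp (listed as 6430706D22Rik), the chaperone of the centromeric H3 variant, was higher in KO resting Naïve cells by 1.00 ± 0.18 (adjusted p 0.0301). Its differences of 0.80, 0.26 and 0.45 in the other states did not pass an adjusted p of 0.05. By the 4 criteria 1 of 19 chaperone probes was called higher in KO in resting and 1 in stimulated Naïve cells. The shares of all probes were 0.681% and 0.112%. In stimulated Naïve cells the 0.80 of Hjurp was the largest difference of this list. In Th2 cells 0 of the 19 were called in either state. The centromeric variant itself, Cenpa, was higher by 1.40 in resting Th2 than in resting Naïve WT cells and fell by 1.24 after PMA and ionomycin.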

How the data were processed

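Per the labels, RNA was labelled as cRNA and hybridised to Illumina arrays, and the authors exported probe intensities and detection p-values (deposited, not normalized) from GenomeStudio 1.6.0. All columns belonged to the 24 samples. Here neqc of limma 3.58.1 (R 4.3.3) corrected the deposited intensity for background by means of those detection p-values, added an offset of 16 and put the arrays on a common log2 scale by quantiles. Probes with a detection p of 0.02 or less on at least 1 array were kept. One linear model of the 8 groups covered all 14246 kept probes (lmFit, eBayes, 16 residual degrees of freedom, 20.3 after moderation), and p-values were adjusted over all kept probes by Benjamini-Hochberg. Differences between states were called at an adjusted p below 0.05 and differences between genotypes by the cut-offs of the study's 4 criteria, applied to the limma differences and Benjamini-Hochberg values and not to the methods' Z-score data. Other alternatives were Z-score normalization, no background correction, other filters on dim probes, within-state normalization, fits on the compared groups alone, the brightest probe per gene, a replicate block, and leaving out each array. Replicate pairs correlated at 0.949 to 0.989, and the number of arrays limits the precision. The members and gene lists were chosen with earlier results of these data known. Named were the 5 called members with the largest difference in each direction between states in WT, up to 3 members without overlap between genotypes, all variants, and preset chaperone, cell cycle and Pbrm1 probes. Hist1h3f, Hist2h3c1 and others named beside them were chosen after their values were seen. Symbols and probe positions in the transcript are those of the deposited table, and gene starts and promoters came from RefSeq, in which all 71 member probes matched a gene, and Pbrm1 and Hjurp were found through older names. Npat and Mki67, also preset, were not analysed here. The scripts were tested on simulated data. The methods speak of 3 pairs of mice, and the labels do not say that a letter marks a pair. Deviations of WT and KO arrays of one letter from their group means, pooled over states, correlated at 0.301 (A), 0.136 (B) and 0.516 (C). The main model nevertheless left the letters unpaired. A fit with the letter as a replicate block was given only as an alternative. Within a state 10 of 12 such correlations were above 0.1. Labels do not state separate cultures, so p-values measure the spread between these arrays.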

Additional observations from a re-analysis of the deposited data

How the results depend on the processing

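With the array letter as a replicate block, 1 member was called between genotypes in resting Naïve cells (Hist2h2ab) in place of 0, and 1 rose in place of 0 after PMA and ionomycin in WT. No other total of calls moved by over 1.5 times with the block. Without a filter on dim probes 1 was called there (Hist3h2a). Leaving out 1 array at a time gave 0 to 1 calls in resting Naïve cells (Hist1h4m without KO array C, Hist2h3b without WT array C) and 0 in the other 3 states and in the genotype differences between states. For the differences between states, the 4 criteria gave 18 calls for Naïve stimulation in WT and 14 in KO, 14 for resting Th2 against resting Naïve in WT, and 3 and 4 for PMA and ionomycin in WT and KO. Leaving out 1 array gave 25 to 32 calls in WT and 24 to 30 in KO for Naïve stimulation, 19 to 23 and 17 to 22 for resting Th2, and 4 to 10 and 3 to 11 for PMA and ionomycin. Z-score normalization gave 5 calls for PMA and ionomycin in KO. The cause was not tested. Of 62 comparisons of named probes, 45 kept direction and side of the threshold under every alternative and 0 reversed. The offset understates differences of probes near the background.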
